A study of Mus musculus with 12 samples.

Results

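The transcriptome of adult mouse cortical endothelium is described here from the 3 wild-type (WT) libraries of a series of 12. The 3 WT columns of the deposited count table were taken, and each of its 21638 genes was given a length-scaled level: the count divided by gene length in bases, scaled so that each library sums to 1000000. Levels written below as 3 values are always those of WT 1, WT 2 and WT 3, per 1000000, and a mean is given as mean ± SD (n = 3). Cortical cells carrying CD31 but neither CD41 nor CD45 had been sorted, a gate that takes endothelium and leaves out platelets and leukocytes. The SMART-Seq v4 PLUS kit, meant for small amounts of RNA, was used for all libraries. The other 9 libraries, 3 per group, came from Hdac2lox/lox:Cdh5CreERT2 mice (Hdac2 ECKO), Ezh2lox/lox:Cdh5CreERT2 mice (labelled Ezh2 ECKO, where ECKO marks the endothelial deletion) and Ctnnb1lox/lox:Cdh5CreERT2 mice (beta-catenin GOF). Cdh5CreERT2 is a tamoxifen-inducible Cre recombinase driven by the promoter of the VE-cadherin gene, which is active in endothelium. The mutants received 5 doses of tamoxifen at 75 mg/kg, and brains were taken after 2 months. The labels give the WT mice no allele, and do not state whether they carried Cre or received tamoxifen, how old they were beyond adult, or whether each library came from 1 animal. P-values therefore measure the spread between these libraries, which may be partly technical.

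Endothelial cells line blood vessels. Those of the brain are joined by continuous tight junctions, take up little by vesicles, and carry nutrients in and drugs out through membrane transporters, which together form the blood-brain barrier. Wnt ligands and Norrin from neighbouring cells act through Frizzled receptors and beta-catenin to maintain these properties. Along the vascular tree, endothelium of arteries, capillaries and veins differs in its genes, and capillaries make up most of the vessel length.

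The WT libraries held 28854569, 33124642 and 31593577 counts, and 14358, 14202 and 14490 genes were above 0. Log2 levels of each pair of libraries correlated across 10397 genes with a mean level of at least 1 (Pearson's r 0.974 for WT 1 with WT 2, 0.955 for WT 1 with WT 3, 0.964 for WT 2 with WT 3). Genes are not independent replicates, so these values describe the libraries and carry no test. Counts of each pair differed by far more than sampling noise (chi-square per degree of freedom 165, 244 and 214), so the 3 were kept as separate libraries.

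The label was first checked with 4 markers of brain endothelium, with gene positions on GRCm38 (GENCODE M21). Cldn5, the main tight junction claudin of brain vessels (ENSMUSG00000041378.2, chromosome 16, 18776847 to 18778262, plus strand), was at 1838, 2718 and 1720.1 and stood at rank 44 of all genes. Slco1c1, which carries thyroxine into the brain (ENSMUSG00000030235.17, chromosome 6, 141524368 to 141570177, plus strand), was at 811, 573 and 395, rank 249. Slc2a1, the glucose transporter GLUT1 (ENSMUSG00000028645.11, chromosome 4, 119108711 to 119137983, plus strand), was at 373, 302 and 246, rank 503. Pecam1, which encodes the sorted antigen CD31 (ENSMUSG00000020717.19, chromosome 11, 106654217 to 106750628, minus strand), was at 126, 119 and 61.6, rank 1255. All 4 were measured at over 60 in all 3 libraries, and WT 3 was the lowest for each, except that with TMM scaling of the levels WT 1 became the lowest for Cldn5. The genes targeted in the mutants were also expressed to different degrees. Ctnnb1, which encodes beta-catenin (ENSMUSG00000006932.17, chromosome 9, 120929216 to 120960507, plus strand), was at 234, 238 and 269.7, Hdac2 (ENSMUSG00000019777.16, chromosome 10, 36974544 to 37001889, plus strand), a histone deacetylase, at 80.7, 55.2 and 40.1, and Ezh2 (ENSMUSG00000029687.16, chromosome 6, 47530139 to 47595341, minus strand), the methyltransferase of Polycomb repressive complex 2, at 2.95, 0.820 and 2.25. Their ranks were 617, 1864 and 9093. Ctnnb1 overlaps Ulk4 in the annotation.

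Upstream sequence of the markers Cldn5 and Slco1c1 is shown because they differ in base composition. The 250 bases before the RefSeq start of Cldn5 hold the GC box letters GGGCGG, here on the reverse strand and in capitals. Those of Slco1c1 hold none. Sequences are from RefSeq (GRCm38.p6), 5′ to 3′ on the gene's strand, at chr16:18776597-18776846 (plus strand) for Cldn5 and chr6:141524104-141524353 (plus strand) for Slco1c1.
Cldn5: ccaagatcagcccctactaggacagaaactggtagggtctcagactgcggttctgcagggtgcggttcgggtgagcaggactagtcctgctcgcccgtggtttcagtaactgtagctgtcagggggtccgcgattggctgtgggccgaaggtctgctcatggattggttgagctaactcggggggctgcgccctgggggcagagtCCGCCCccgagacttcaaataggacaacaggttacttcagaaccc
Slco1c1: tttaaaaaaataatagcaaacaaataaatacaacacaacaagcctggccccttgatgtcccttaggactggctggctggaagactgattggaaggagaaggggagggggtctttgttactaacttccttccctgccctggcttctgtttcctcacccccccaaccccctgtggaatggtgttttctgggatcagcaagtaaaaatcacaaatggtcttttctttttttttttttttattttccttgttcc
Over both strands of 300-base windows (250 before and 50 after the start), GGGCGG was found in 51.2% of the 16526 genes with a RefSeq promoter. The share was 68.7% among 3973 such genes with a mean level of at least 10 and 20.5% among 3832 at 0 in all 3 WT libraries. CCGGAAG, a core recognised by ETS factors, was found in 13.4%, 24.7% and 2.37% of the same sets. Of the 26 genes of the pan-endothelial list described below, 13 had a RefSeq promoter and 0 of these held it. A count over 13 genes is too small to compare with these shares. A match is a description of the letters only.

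**Figure D1:**
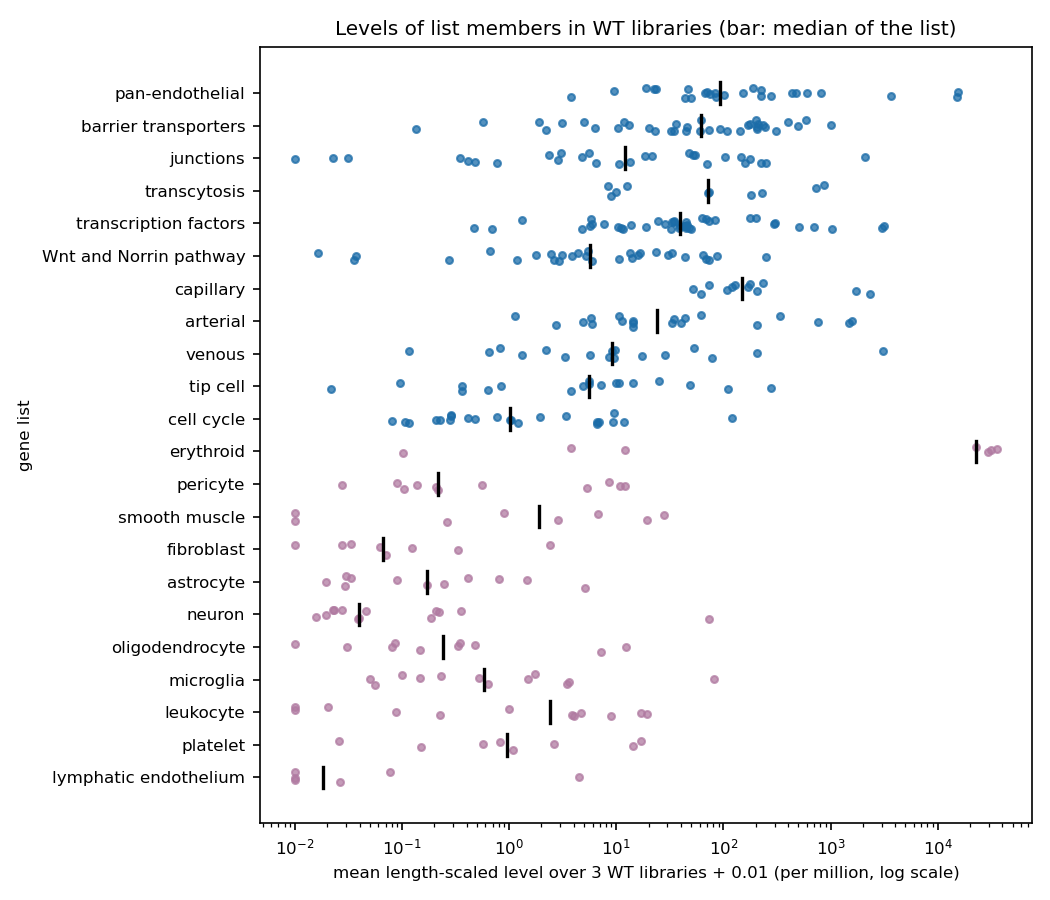
Mean length-scaled level over the 3 WT libraries plus 0.01 (per 1000000, log axis) of each member of 22 gene lists, with 1 point per gene and a bar at the list's median; endothelial and cell cycle lists are blue, other cell types purple. The pan-endothelial, barrier transporter and capillary lists have medians of 93.4, 61.3 and 149, while among the other cell types only the erythroid list has members above 100.

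Other cell types were represented unevenly: many of their defining markers were at or near 0, while haemoglobin genes were among the highest of all and single genes such as Stmn2 reached the level of endothelial receptor genes. Of 6 lymphatic endothelial markers, Prox1, Lyve1 and Ccl21a had no count in any WT library; for Prox1, 3 counts would be a level of 0.0276, 0.023 and 0.022. Of 11 pericyte genes, Pdgfrb, the pericyte receptor for PDGF-B, was at 0.225, 0.0235 and 0.135 and Cspg4 at 0.0323, 0 and 0.0207, and the highest were Rgs5 at 9.80, 11.6 and 14.7, Higd1b at 8.10, 9.35 and 14.8 and Vtn at 11.5, 7.93 and 6.25. Of 8 smooth muscle genes, Cnn1 and Myocd had no count, and the highest were Tagln at 18.1, 29.99 and 35.2, Acta2 at 15.9, 17.7 and 24.0 and Tpm2 at 5.35, 6.33 and 8.64. The summed level of a list describes the mural cell signal more fully: pericyte genes summed to 34.9, 33.7 and 45.1, and smooth muscle genes to 42.8, 58.7 and 71.7, each under 0.01% of the total. In RNA from sorted bulk cells, fewer cells of a type and less RNA per cell cannot be told apart.

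Markers of glia, neurons and fibroblasts were mostly under 1. Among 13 neuronal genes only Stmn2 had a mean of at least 1, at 62.8, 65.1 and 92.7; Rbfox3, Snap25 and Syt1 had means under 0.1. Among 11 astrocyte genes the highest was Gja1, which encodes connexin 43, at 6.87, 3.85 and 4.48, and Aqp4 was at 0.0495, 0 and 0.0198. The oligodendrocyte list had Cnp at 20.6, 11.0 and 5.45 and the myelin gene Mog at 0.181, 0 and 1.23, and Ugt8a had no count. Of 8 fibroblast genes only Ogn reached 1, at 2.40, 2.23 and 2.59, and Lum had no count. Of 7 genes of choroid plexus and ependyma, Ttr was at 2.08, 1.19 and 0.935 and Foxj1 had no count.

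Of 12 microglial genes, 1 had a mean of at least 10, and the list summed to 127, 77.9 and 75.1. The microglial marker gene Tmem119 was at 0.266, 0 and 0 and P2ry12 at 0.666, 0 and 0. The complement gene C1qb was at 6.94, 2.13 and 1.36 and Ctss, which encodes a cathepsin, at 5.90, 2.37 and 2.45, both highest in WT 1. Among 12 leukocyte genes, the neutrophil genes S100a8 at 26.1, 4.36 and 28.1 and S100a9 at 15.9, 1.48 and 33.9 were the highest and WT 2 the lowest, followed by Ly6g at 10.6, 10.5 and 5.69; Ptprc, which encodes the CD45 antigen of the gate, had a mean under 0.1, and Cd3e and Ccr2 had no count. The platelet genes Ppbp and Pf4 were at 11.1, 8.09 and 31.5 and 11.5, 12.0 and 19.7, and Itga2b, which encodes CD41, at 2.23, 2.43 and 3.21.

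Haemoglobin transcripts were among the most abundant of all. Hba-a2 was at 33558, 32522 and 41019, Hba-a1 at 29266, 28287 and 35969, Hbb-bs at 25741, 25236 and 37945 and Hbb-bt at 20333, 19483 and 29176. These 4 genes, which encode the alpha and beta chains of adult haemoglobin, made up 10.9%, 10.6% and 14.4% of the length-scaled total. They lie in near-identical pairs, so reads may be split between copies and the value of each single gene is uncertain. Other red cell genes were low: Alas2, the erythroid haem synthesis enzyme, was at 13.1, 17.98 and 5.28 and Slc4a1 at 0.0945, 0.105 and 0.0756. In the mutants the share of the 4 genes was 7.07%, 0.155% and 0.349% in Hdac2 ECKO, 0.768%, 1.49% and 1.17% in the Ezh2 ECKO-labelled samples, and 8.52%, 0.163% and 8.52% in beta-catenin GOF. All 3 WT libraries were above all 9 mutant libraries. The single genes did not pass the test against any mutant group; for Hba-a2 the log2 difference was −2.40 (SE 1.22) in Hdac2 ECKO and −3.48 (SE 1.28) in the Ezh2 ECKO-labelled samples (edgeR adjusted p 0.181 and 0.12).

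**Figure D2:**
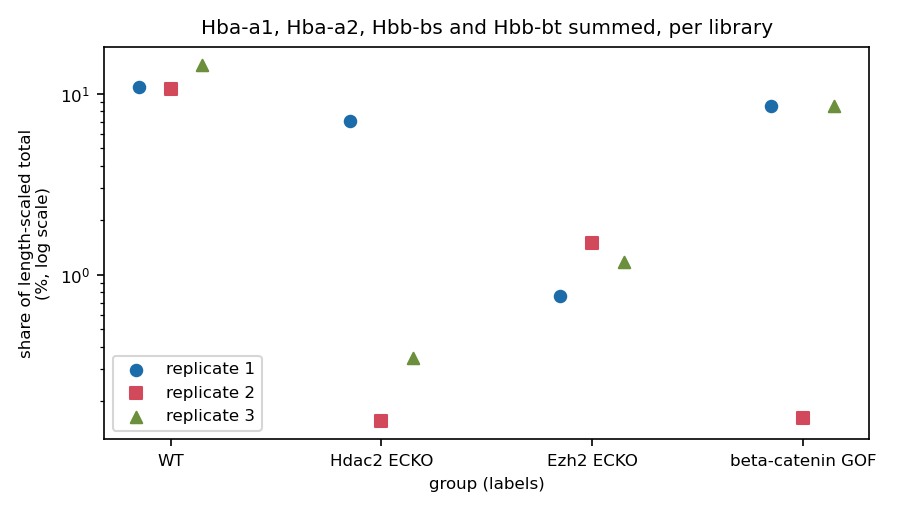
Share of the length-scaled total (%, log axis) taken by the 4 adult haemoglobin genes in each of the 12 libraries, by group as labelled, with 1 point per library. The 3 WT libraries lie between 10.6% and 14.4%, above all mutant libraries, and the mutant libraries range from 0.155% to 8.52%.

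Few genes carried much of the RNA. Of 21638 genes, 16483 had a mean above 0, 10397 (48.0%) a mean level of at least 1, 5121 (23.7%) of at least 10, 1273 (5.88%) of at least 100 and 132 of at least 1000, while 5155 had no count in any WT library. The 10 highest genes held 28.2% ± 2.24 of the total, the 100 highest 48.6% ± 2.83 and the 1000 highest 81.8% ± 2.56. Of the 100 highest by mean, 71 were among the 100 highest in each library. The highest genes were short: the median length was 1254 bases for the 100 highest and 3550 bases over the table. Without division by length, the 100 highest held 33.1%, and 61 of them were shared with the length-scaled ranking.

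Tmsb4x, which encodes the actin-binding peptide thymosin beta 4, had the highest mean, at 36894, 33202 and 49031 (ENSMUSG00000049775.16, chromosome X, 167207093 to 167209315, minus strand). Bsg, which encodes basigin, the partner of monocarboxylate transporters and long used as a blood-brain barrier antigen, followed at 49122, 36022 and 28864 (ENSMUSG00000023175.15, chromosome 10, 79704491 to 79711969, plus strand). B2m, the light chain of MHC class I, was at 17468, 48389 and 32793 (ENSMUSG00000060802.8, chromosome 2, 122147686 to 122153083, plus strand), with WT 2 the highest and WT 1 the lowest. Itm2a, a membrane protein gene, was at 20159, 18816 and 23821, and the GPI-anchored Ly6 genes Ly6a and Ly6c1 were at 13063, 20385 and 12657 and 13929, 18730.3 and 13129. Ubb, a ubiquitin gene, was at 13704, 9965 and 8839 and Ifitm3, an antiviral membrane protein gene, at 6240.4, 12482 and 7831. None of the 39 neighbouring pairs among the 40 highest genes was separated without overlap of the 3 values, so the exact order within them lies inside the spread of the libraries.

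The genes that follow complete the 40 highest and are grouped by what they encode, after their values were seen. Iron, copper and redox genes were Ftl1 (ferritin light chain) at 6695, 5005 and 4301, Atox1 (a copper chaperone) at 4583, 5112 and 6198 and Selenow (a selenoprotein) at 2180.2, 3886 and 3183. Cytoskeletal and calcium genes were S100a11 at 2886, 3444 and 4208, Tmsb10 at 2397, 3389.8 and 3397, Calm2 at 2434, 2550.0 and 2901 and the myosin light chain Myl12b at 2492, 2515 and 2003. The inhibitors of basic helix-loop-helix factors Id1 and Id3, targets of BMP signalling, were at 3777, 2898 and 2773 and 3558, 2919.7 and 2566. The mitochondrial and ribosomal subunits Uqcrb, Cox6a1, Cox6b1 and Rpl38 had means of 2989.8 ± 1203, 2397 ± 232, 2345 ± 522 and 2430.1 ± 728. Each of these 4 subunit genes was highest in WT 3.

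The remainder held secreted, signalling and housekeeping genes. Cst3 (cystatin C) at 3485, 3531 and 3459 and Igfbp7, a vascular matrix protein gene, at 2626, 2780.3 and 2698 varied least between libraries of the genes named in this paragraph. Gng11 (a G protein gamma subunit) was at 2865, 3222 and 5601, Ppia (cyclophilin A) at 3365, 3426 and 4473, Ly6e at 4255, 4697 and 2054 and Ifitm2 at 2893, 3729 and 3887. Ptma, Eif1, Itm2b and 1810037I17Rik had means of 3052 ± 472, 2576 ± 569.6, 2439.5 ± 528 and 2361 ± 736. Gm49909, Gm20538 and Gm45717, with means of 7216 ± 849, 2557 ± 696 and 2469 ± 346, overlap Myl12a and Myl12b, Ndufb8 and Sec31b, and Ifitm2 and Ifitm5 in the annotation, so their counts may belong in part to those genes. Tgtp2 was placed among the 40 by WT 2 alone, with levels of 377, 6741 and 359.

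**Figure D3:**
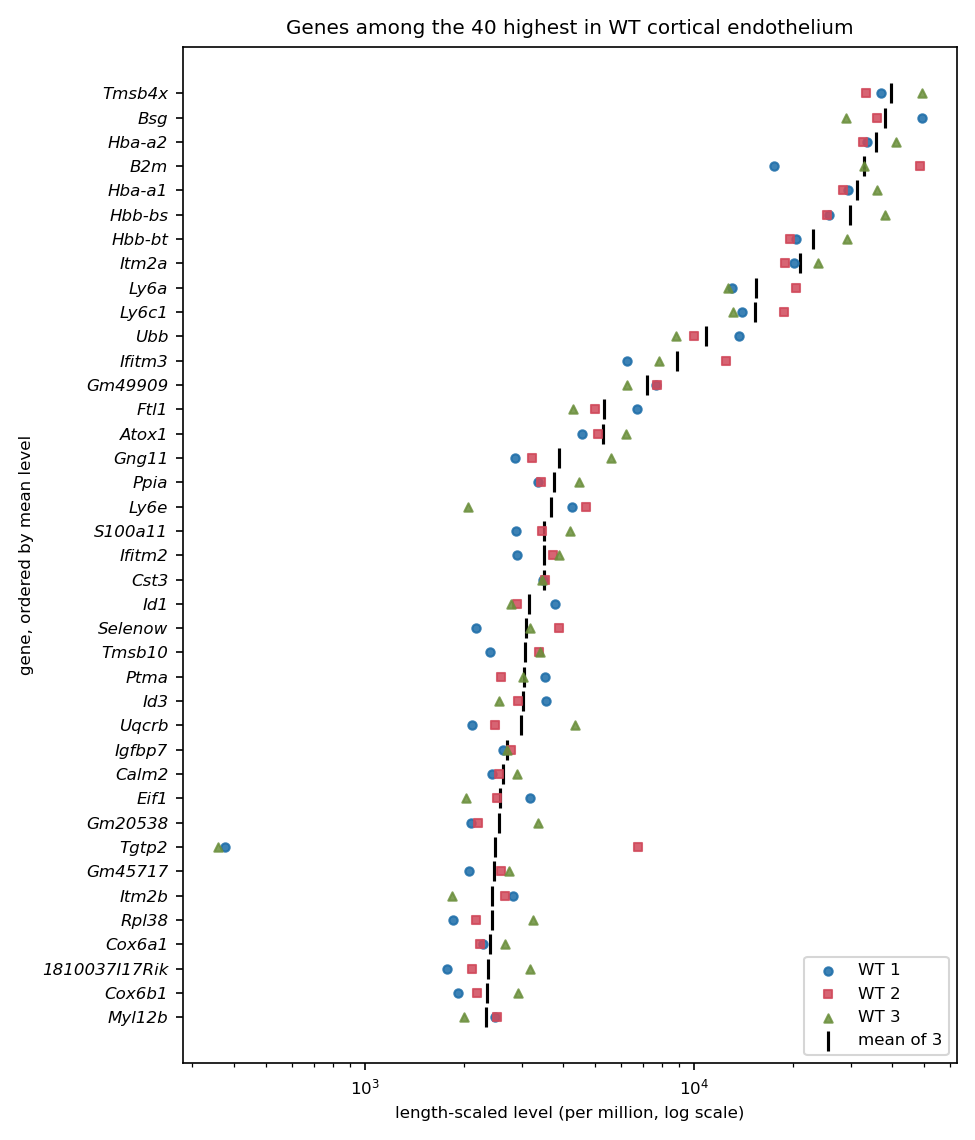
Length-scaled level (per 1000000, log axis) of genes among the 40 with the highest mean over the WT libraries, with 1 symbol per library and a tick at the mean. Symbols of neighbouring genes overlap throughout, and Tgtp2 stands apart with 1 library at 6741 and the others at 377 and 359.

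Genes expressed across endothelium covered a wide range of levels. All 26 members of this list had a mean of at least 1, 24 of at least 10 and 13 of at least 100, against 48.0%, 23.7% and 5.88% of all genes. Beyond the Ly6 genes, the highest were Ramp2, a co-receptor for adrenomedullin, at 1007, 802 and 637, Emcn (endomucin) at 763, 614 and 418 and Egfl7, a secreted vascular factor, at 696, 452 and 280.2. Receptor genes were lower: Flt1 (VEGF receptor 1) was at 178, 217 and 174, Tek (the angiopoietin receptor Tie2) at 159, 149 and 151 and Kdr (VEGF receptor 2) at 51.5, 48.8 and 48.9. The 3 values of Flt1 lay above those of Kdr without overlap. Cdh5, the VE-cadherin gene whose promoter drives the Cre of the mutants, was at 54.0, 74.0 and 80.6. Mcam was the lowest member at 3.45, 2.34 and 5.41, and Vwf, the von Willebrand factor gene of larger vessels, the next at 10.9, 9.76 and 7.69.

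Barrier transporters were expressed broadly. Of 36 listed genes, 34 had a mean of at least 1, 29 of at least 10 and 15 of at least 100, with a median of 61.3. Slco1a4, an organic anion transporter, was the highest at 1369, 979 and 671, followed by Slco1c1. The efflux pump gene Abcg2 was at 623, 481 and 369, above Abcb1a (P-glycoprotein) at 224, 213 and 192 in every library. Slc16a4 was at 632, 336 and 225 and Slc9a3r2, a scaffold for transporters, at 335, 280.3 and 122. Of the genes for amino acid carriage, the 2 subunits of the large neutral carrier, Slc3a2 and Slc7a5, were at 296, 218 and 85.6 and 74.3, 62.4 and 49.8, and Slc38a5 at 320.3, 210.4 and 90.7. Iron uptake and export genes Tfrc and Slc40a1 were at 197, 155 and 159 and 115, 91.6 and 72.2, and the monocarboxylate transporter Slc16a1 at 243, 162 and 208. At the other end, Slc6a9 was at 0.2998, 0.0501 and 0.0240 and Slc1a4 at 0.864, 0.754 and 0.0628. WT 1 was the highest library for 25 of the 36 genes, and their sum was 6856, 5147 and 3807. With TMM scaling WT 1 was the highest for 20 of the 36.

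Junction genes were dominated by Cldn5. Of 28 members, 21 had a mean of at least 1 and 15 of at least 10. Esam and Jam2, adhesion molecules of the immunoglobulin family, were at 274, 249 and 144 and 204, 171 and 153, F11r, which encodes JAM-A, at 205, 166 and 108, and Ocln (occludin) at 188, 125 and 119.6. Lsr and Marveld2, which encode angulin-1 and tricellulin of tricellular contacts, were at 134, 121 and 55.8 and 12.8, 15.2 and 12.3. The scaffold gene Tjp1 was at 39.8, 44.6 and 57.3 and Tjp3 at 0.602, 0.381 and 0.431. Other claudins were far lower: Cldn12 was at 2.39, 4.20 and 2.00, Cldn3 at 0.612, 0.307 and 0.294, Cldn11 at 0.165, 0 and 0.857 and Cldn1 at 0.0637, 0 and 0. Marveld3 had no count in any WT library, for which 3 counts would be a level of up to 0.0704.

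Caveolar genes were expressed beside the gene known to hold back vesicle transport. Cav2 was at 1189, 775 and 654 and Cav1 at 1088, 729 and 383, both in the range of the highest transporters, with Cavin2 at 295, 179 and 212 and Cavin3 at 212, 175 and 160.3. Mfsd2a, a lysolipid transporter required to suppress transcytosis in brain endothelium, was at 92.1, 75.1 and 50.2, near Cavin1 at 88.2, 72.8 and 53.9. Plvap, which forms the diaphragms of leaky vessels, was at 11.3, 17.2 and 1.09 and thus differed over 10-fold between WT 2 and WT 3.

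Zonation genes were unequal in level. All 12 capillary genes had a mean of at least 10 (median 149), against 15 of 20 arterial genes (median 23.8) and 6 of 17 venous genes (median 9.11). Among the capillary genes, Car4, the membrane carbonic anhydrase, was at 3024, 2319 and 1643, and Rgcc at 1696, 1699.7 and 1734, nearly equal in the 3 libraries. The solute carriers Slc6a6 (taurine), Slc16a1 and Slc22a8 (organic anions) were at 205, 239 and 259.9, 243, 162 and 208 and 276, 163 and 89.0; Tfrc, Slc16a1, Slc22a8, Slc6a6, Slc19a3, Mfsd2a and Slc7a5 are also members of the transporter list. Slc22a8 fell in the order WT 1, WT 2, WT 3, as did Car4. These values describe 3 libraries that each mix all vessel segments.

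Arterial genes were led by Gkn3 at 1154, 1228 and 2386, Tm4sf1 at 1373, 1465 and 1628 and Crip1 at 594, 718 and 973. Mgp, matrix Gla protein, was at 219, 249 and 551, Edn1 (endothelin 1) at 246, 181 and 184 and Alpl (alkaline phosphatase) at 94.6, 63.8 and 28.4. Gkn3, Crip1 and Mgp were highest in WT 3, and the arterial sum was 3931, 4131 and 5984. Connexin genes of arteries were low, with Gja4 at 18.4, 15.9 and 8.78 and Gja5 at 1.05, 1.28 and 1.07. Among venous genes, Tmsb10 and Slc38a5 were the highest, with lower values for Ctsc (cathepsin C) at 113, 81.0 and 40.6, Vcam1 at 20.6, 31.1 and 34.1 and Icam1 at 22.3, 15.98 and 13.5. The venous transcription factor gene Nr2f2 was at 6.26, 5.70 and 4.89, and the selectin genes Sele and Selp at 0.529, 0.332 and 1.06 and 0.105, 0 and 0.209.

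**Figure D4:**
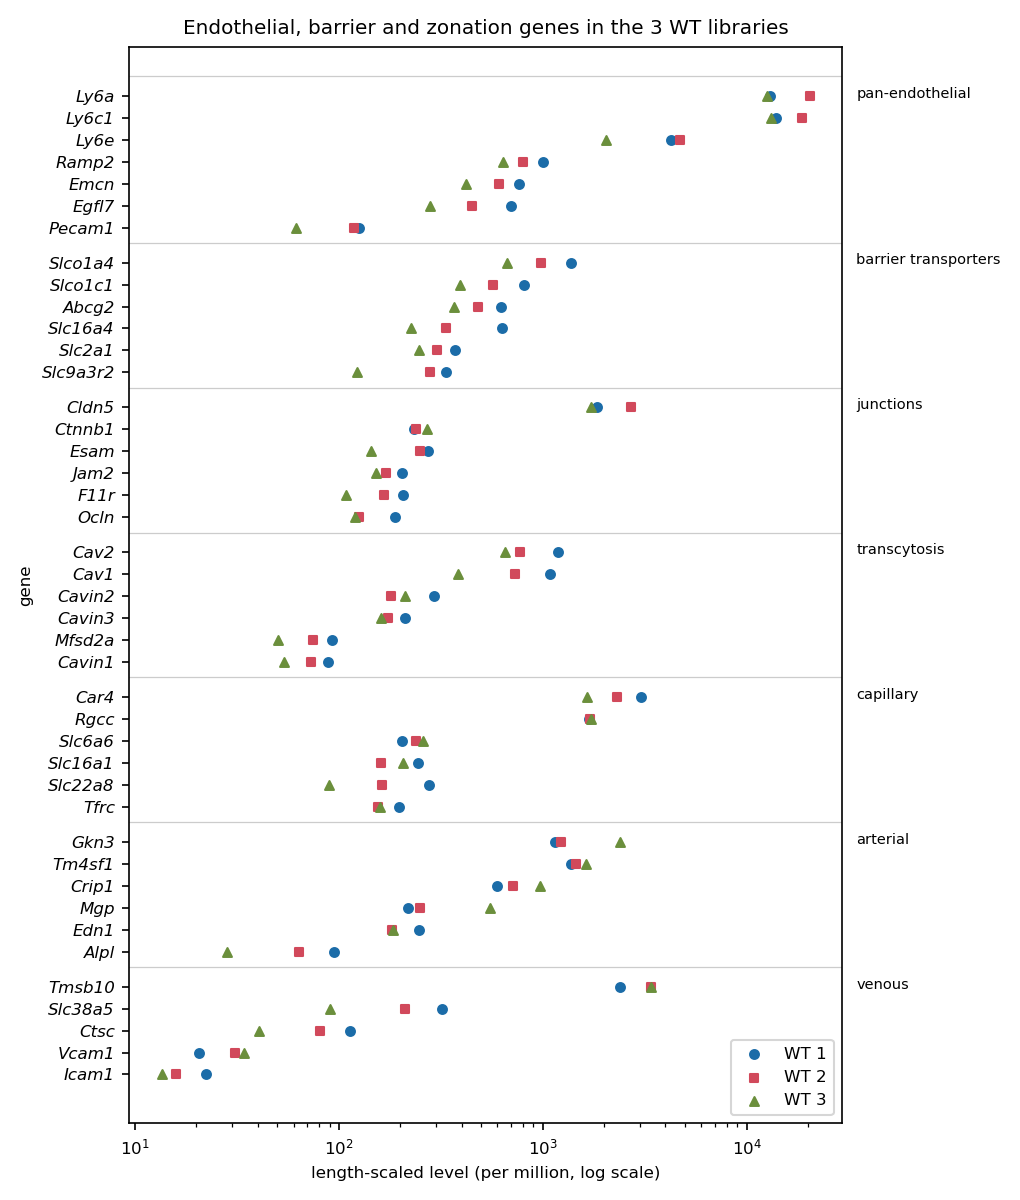
Length-scaled level (per 1000000, log axis) of genes among the 6 highest members of 7 lists, and of Pecam1, in the 3 WT libraries, with 1 symbol per library. Values of 1 gene mostly lie close together next to the range between genes, and WT 3 (triangles) is the lowest library for most transporter and transcytosis genes and the highest for Gkn3, Crip1 and Mgp.

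Transcription factors of endothelium were led by Id1 and Id3, followed by the Notch target Hes1 at 1530.4, 805 and 755, the flow-induced Klf2 at 998, 724 and 378, Tsc22d1 at 727, 443 and 368 and Lmo2 at 299, 319 and 281. Of 41 listed genes, 39 had a mean of at least 1 and 33 of at least 10. The brain endothelial factors Foxf2, Foxq1 and Lef1 had means of 62.8 ± 6.66, 44.1 ± 5.59 and 68.2 ± 16.8. The ETS genes Fli1, Ets1 and Erg had means of 83.2 ± 16.4, 44.6 ± 4.62 and 34.2 ± 5.90. Sox18 and Sox17 were at 209, 184 and 143 and 82.9, 71.3 and 67.2. Epas1, which encodes HIF-2 alpha, was at 172, 194 and 232. The nuclear receptor genes Rxra and Ppara were the lowest at 0.758, 0.797 and 0.469 and 1.04, 0.117 and 0.225.

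Of 30 genes of Wnt and Norrin signalling, 25 had a mean of at least 1, 14 of at least 10 and 1 of at least 100, against 48.0%, 23.7% and 5.88% of all genes. Beyond Ctnnb1, the highest members were Tspan12, a co-receptor for Norrin, at 119, 72.9 and 70.6, the factor genes Sox17 and Lef1, Fzd6 at 74.3, 59.1 and 58.5 and Tnfrsf19 at 45.6, 39.9 and 45.2. Fzd4, the Norrin receptor, was at 16.2, 12.1 and 11.8, Reck at 22.0, 20.8 and 28.1 and Adgra2 (GPR124) at 2.46, 2.65 and 2.26. The feedback targets Apcdd1, Notum, Nkd1 and Axin2 were at 13.1, 13.3 and 15.5, 14.8, 17.8 and 15.2, 45.4, 30.05 and 15.6 and 4.06, 6.08 and 6.25. Wnt7a, Wnt7b and Ndp, the ligands made by neighbouring cells, were at 0, 0 and 0.0777, 0.0315, 0 and 0.0503 and 0.795, 0 and 0. Low members also included the co-receptor gene Lrp5 at 0.665, 0.893 and 0.405 and Rnf43, which encodes a ubiquitin ligase, at 0, 0 and 0.0188.

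Other signalling lists held few genes above 100. In the VEGF, Tie and Notch list, Hes1, Flt1, Tek and Kdr were followed by the ligand gene Vegfc at 35.7, 34.7 and 50.1 and Hey1, a Notch target, at 51.3, 22.7 and 30.1, while Vegfa was at 0.575, 0.691 and 1.38 and Angpt1 at 0.740, 0.124 and 0.426. Dll4, the arterial Notch ligand, was at 22.3, 11.0 and 9.60 and Notch1 at 6.57, 6.53 and 10.1. Among genes of TGF-beta and BMP signalling, Id2 was at 686, 419 and 382, the receptor genes Bmpr2, Eng and Acvrl1 at 44.6, 54.8 and 60.7, 36.4, 76.7 and 27.0 and 39.4, 38.5 and 29.1, and Tgfb2 at 33.2, 47.0 and 34.8. Eng was highest in WT 2. Bmp7 had no count and Bmp2 was at 0.715, 0.616 and 0.208. Of 18 tip cell genes, which mark sprouting endothelium, 6 had a mean of at least 10; Cd34 was at 424, 280.4 and 121, Adm (adrenomedullin) at 183, 84.0 and 61.8, Pdgfb at 47.4, 58.3 and 41.8, Plaur at 38.8, 24.7 and 11.7 and Igfbp3 at 9.50, 14.7 and 7.80, while Apln was at 0.245, 0 and 0.822.

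Matrix, surface and metabolic genes completed the description. Sparcl1 and Sparc, matricellular protein genes, led the basement membrane list at 1300.1, 774 and 514 and 619, 432 and 264, followed by Vwa1 at 103, 150.2 and 96.7, Itgb1 at 129, 113 and 66.3, Fn1 (fibronectin) at 64.1, 69.8 and 72.9 and Itga6 at 65.9, 78.5 and 59.4; the collagen IV genes Col4a1 and Col4a2 were at 25.0, 29.9 and 27.0 and 15.8, 15.2 and 16.3. In the list of leukocyte adhesion and coagulation, Anxa5 at 1100.5, 826 and 609, the complement inhibitor Cd59a at 1024, 759.6 and 736 and Icam2 at 429, 571 and 299.7 were the highest, followed by Anxa2 at 293, 263 and 207, thrombomodulin (Thbd) at 56.6, 55.2 and 69.3 and tissue plasminogen activator (Plat) at 76.8, 51.0 and 49.7, and tissue factor (F3) was at 0.305, 0 and 0. Among flow response genes, Klf4 was at 344, 292 and 256 and the nitric oxide synthase Nos3 at 19.1, 25.4 and 23.5.

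Antioxidant genes were high as a list: 13 of 20 had a mean of at least 100 and 6 of at least 1000. Gpx1 was at 1767, 2291 and 2650.1, Prdx1 at 1664, 1603 and 2133, Gstm1 at 1814, 1300.3 and 908, Txn1 at 1040.3, 1208 and 1512, Gsta4 at 1142, 1066 and 1065 and Gpx4 at 955, 905 and 1332. Of 17 glycolytic genes, 7 had a mean of at least 100, among them Ldha at 237, 283 and 266, Aldoa at 248, 155 and 116 and Gapdh at 229, 175 and 109, with Tpi1 at 208, 117 and 77.3, Eno1 at 139, 146 and 54.0 and Pgk1 at 142, 109 and 67.1. Hexokinase 1 (Hk1) was at 2.79, 4.25 and 2.19 and hexokinase 2 (Hk2) at 0.181, 0 and 0. Of 23 cell cycle genes, 12 had a mean of at least 1, a share near that of all genes, and 2 of at least 10; the list's median was 1.01, against 0.732 over all genes. Pcna was the highest at 128, 122 and 111, and the proliferation marker Mki67 was at 0.0919, 0.102 and 0.0980. The DNA replication and cyclin genes Ccna2, Tyms, Mcm6, Mcm7 and Mcm4 had means of 11.7 ± 1.49, 9.42 ± 0.961, 9.30 ± 3.19, 6.85 ± 0.994 and 6.58 ± 1.09.

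The 3 WT libraries were not alike for all genes. Among 3609 genes with a mean of at least 20 and no library at 0, the highest library was a median of 1.52 times the lowest, 832 genes (23.1%) differed over 2-fold and 49 over 5-fold. Of the 20 genes with the largest ratio, 15 were highest in WT 2. These were Iigp1 at 60.02, 661 and 25.1, Igtp at 76.9, 1876 and 79.2, Irgm1 at 58.6, 593 and 44.8 and Irgm2 at 24.9, 251 and 22.8, all immunity-related GTPases. The near-identical copies Tgtp1 and Tgtp2 were at 306, 5404 and 279.8 and 377, 6741 and 359. The guanylate-binding protein genes Gbp2, Gbp4, Gbp6 and Gbp10 were at 112, 833 and 73.8, 33.7, 407 and 26.6, 5.38, 83.5 and 5.74 and 2.71, 63.6 and 4.01. The other 5 were Cd274, which encodes the checkpoint ligand PD-L1, at 12.8, 120.4 and 6.23, the nucleic acid sensor Zbp1 at 5.15, 71.4 and 11.1, Gm4951 at 4.20, 98.6 and 12.4, Gm12185 at 20.6, 358 and 16.8 and Gm43302 at 5.74, 99.0 and 6.45. Some of these genes overlap in the annotation (Gm12185 with Tgtp1, Igtp with Irgm2, Gm43302 with Gbp6 and Gbp10), so their counts are not separate evidence. In all 15, WT 2 was more than 10 times the lowest library. These genes were picked for a large ratio, so its size follows from the choice and is no added result. Cd274, Gbp6, Gbp10, Zbp1, Gm4951 and Gm43302 were under 20 outside WT 2, so WT 2 alone carried them over the required mean.

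The pattern covered the interferon list, whose products answer viral infection. All 30 members were highest in WT 2, and they summed to 2581, 10276 and 1941. Beyond the GTPases, Ifit3 was at 395, 1014 and 224, Bst2 (tetherin) at 374, 762 and 309, Isg15, a ubiquitin-like modifier, at 315, 563 and 244 and the immunoproteasome gene Psmb8 at 145, 637 and 149.8. The chemokine gene Cxcl10 was at 11.0, 63.2 and 8.37. All 12 genes of MHC class I presentation were highest in WT 2 as well, with H2-D1 at 514, 879 and 362, H2-K1 at 216, 525 and 324, H2-T23 at 131, 287 and 103, Tapbp (tapasin) at 33.4, 64.6 and 29.8 and Erap1 at 25.4, 36.6 and 23.8. MHC class II genes were low, with Cd74 at 15.7, 51.1 and 22.2, H2-Ab1 at 2.64, 23.5 and 4.13, H2-Aa at 1.74, 7.80 and 4.64, H2-DMa at 0.492, 11.9 and 0.447, H2-Eb1 at 2.93, 3.97 and 5.17 and H2-DMb1 at 0.321, 2.64 and 1.43. Leukocyte genes summed to 61.1, 36.0 and 80.8 and microglial genes to 127, 77.9 and 75.1. Single leukocyte genes differed: of 10 above 0, 3 were highest in WT 1, 3 in WT 2 and 4 in WT 3. Those highest in WT 2 were Lyz2 at 2.81, 11.0 and 0.187, Nkg7 at 0.169, 2.82 and 0 and Ptprc at 0.0589, 0.169 and 0.00673. The part of other cells in the WT 2 values was not tested. With 3 libraries, none of these differences within WT can be tested.

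Upstream sequences of the genes high in WT 2 are shown because many hold the letters of the interferon-stimulated response element. It was searched as GAAA, any 2 bases and GAAA, on both strands of the 300-base windows. It was found in 7 of the 8 such genes with a RefSeq promoter (all but Cd274), which include the near-identical or overlapping Tgtp1, Tgtp2 and Gm12185, and Igtp and Irgm2, so these are not separate promoters throughout. It was also found in 1 of the 2 genes with a promoter that were highest in WT 1 (Ppp1r15a). It was found in 14 of the 24 interferon list genes with a promoter (58.3%), against 4.03% of all 16526. The 250 bases before the start are printed for Igtp (chr11:58199306-58199555, plus strand), Irgm2 (chr11:58214727-58214976, plus strand), Tgtp2 (chr11:49064213-49064462, minus strand), Gbp7 (chr3:142530086-142530335, plus strand) and B2m (chr2:122147437-122147686, plus strand), RefSeq on GRCm38.p6, with the element in capitals (in Gbp7 on the reverse strand).
Igtp: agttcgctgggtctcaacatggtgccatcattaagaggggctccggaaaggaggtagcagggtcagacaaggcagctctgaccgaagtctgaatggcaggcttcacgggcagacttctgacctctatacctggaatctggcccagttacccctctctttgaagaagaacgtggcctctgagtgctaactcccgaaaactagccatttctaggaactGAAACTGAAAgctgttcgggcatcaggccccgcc
Irgm2: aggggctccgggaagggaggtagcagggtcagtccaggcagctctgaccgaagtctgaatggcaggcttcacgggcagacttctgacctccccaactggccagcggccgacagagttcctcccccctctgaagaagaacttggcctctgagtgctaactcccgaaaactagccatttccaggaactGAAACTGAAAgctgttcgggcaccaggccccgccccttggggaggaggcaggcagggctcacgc
Tgtp2: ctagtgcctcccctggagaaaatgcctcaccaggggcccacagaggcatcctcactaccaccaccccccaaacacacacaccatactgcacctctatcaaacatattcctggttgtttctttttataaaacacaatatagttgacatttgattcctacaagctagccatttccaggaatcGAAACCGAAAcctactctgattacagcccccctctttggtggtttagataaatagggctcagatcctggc
Gbp7: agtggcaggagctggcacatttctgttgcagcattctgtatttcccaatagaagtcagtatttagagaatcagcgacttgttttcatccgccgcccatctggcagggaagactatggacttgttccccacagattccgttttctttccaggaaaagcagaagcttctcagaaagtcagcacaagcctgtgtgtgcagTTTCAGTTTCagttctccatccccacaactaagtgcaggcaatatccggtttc
B2m: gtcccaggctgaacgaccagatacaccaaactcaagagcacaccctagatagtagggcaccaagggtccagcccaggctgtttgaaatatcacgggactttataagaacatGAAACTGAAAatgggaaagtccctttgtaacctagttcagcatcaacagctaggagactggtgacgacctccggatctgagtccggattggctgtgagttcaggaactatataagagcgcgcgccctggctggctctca
The first base in capitals lies 34 bases before the start in Igtp, 64 in Irgm2, 70 in Tgtp2, 53 in Gbp7 and 139 in B2m. Gbp7, a further member of the interferon list, was at 54.4, 296 and 46.5.

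Immediate early genes, which cells switch on within minutes of a stimulus, formed another such group. Of 21 members in the table, 20 were highest in WT 1 (19 with TMM scaling), and their sum was 12132, 5476 and 3268. Fos was at 2432, 1224 and 749.7, Ier2 at 2015, 1020.2 and 519 and Dusp1, a MAP kinase phosphatase, at 1862, 567 and 326. Ier3 was at 1011, 510.3 and 495, Zfp36 at 866, 383 and 205 and Atf3, a stress-induced factor, at 857, 359 and 198. Of the 20 genes with the largest ratio, 3 were highest in WT 1, namely Jund at 354, 148 and 36.4, Ppp1r15a, a stress-induced phosphatase subunit, at 235, 83.1 and 19.95 and Gm10197 at 43.7, 22.4 and 3.07. Fos stood among the 100 highest genes by mean. Fosl2 was the member highest in WT 3.

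WT 3 stood apart for fewer of the most variable genes. Of the 20 with the largest ratio, Gm17571 at 3.43, 11.4 and 51.4 and Gm17651 at 4.28, 7.15 and 51.4 were highest there, as was Gm10800, a predicted gene, at 729, 966 and 4335. Against the mean of the other libraries, WT 3 was lower by a median of −0.38 on the log2 scale in the fifth of genes with the highest GC content and of −0.13 in the fifth with the lowest. For WT 1 and WT 2 the same medians were 0.21 and 0.14 for high GC content, and 0.18 and −0.05 for low. The part of GC content in any difference named above was not tested.

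**Figure D5:**
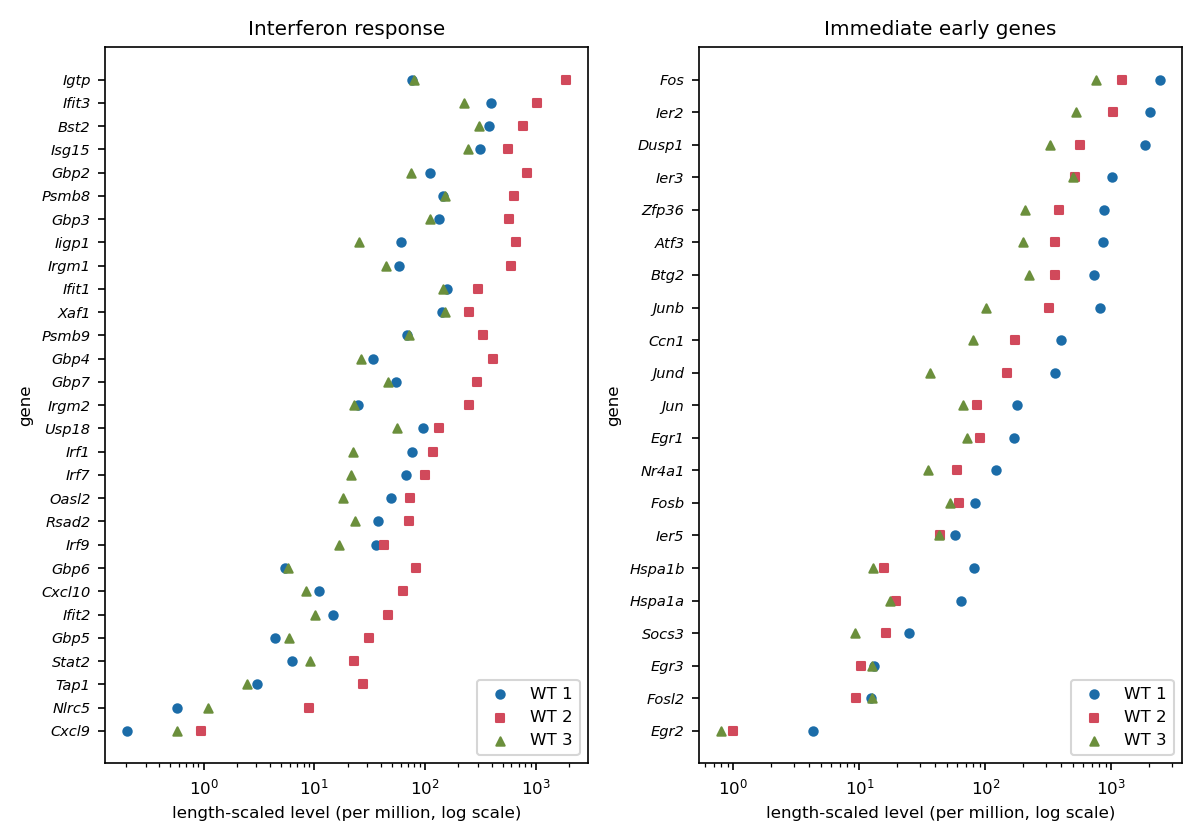
Length-scaled level (per 1000000, log axis) of genes of the interferon list (left) and immediate early genes (right) in the 3 WT libraries, with 1 symbol per library. WT 2 (squares) is the highest library for each interferon gene drawn, and WT 1 (circles) for 20 of 21 immediate early genes.

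The WT libraries were then set beside each mutant group, in 1 edgeR model over the 12577 genes averaging 10 counts or more, to see which of the lists sat at another level in WT. All 3 comparisons share the WT libraries, so a high or low WT value enters each of them. With edgeR's quasi-likelihood test at a Benjamini-Hochberg adjusted p of 0.05, 1157 genes (9.2%) differed between Hdac2 ECKO and WT, of which 480 (3.82%) were higher and 677 (5.38%) lower in the mutant. With a length trend removed, 618 genes were called and 30.3% of them were higher in the mutant, against 41.5% in the fit without that correction. The Ezh2 ECKO-labelled samples differed in 129 genes (1.03%), 43 higher (0.342%) and 86 lower (0.684%). Between beta-catenin GOF and WT 0 genes (0.0%) passed; 763 were at an unadjusted p under 0.05, and DESeq2 called 38. The Hdac2 ECKO count was 0 without WT 1, 0 without WT 2 and 1868 without WT 3, and 1, 2220 and 0 without Hdac2 ECKO 1, 2 and 3. The Ezh2 ECKO count was 2, 2 and 1138 without WT 1, 2 and 3, and 4, 2328 and 7 without mutant library 1, 2 and 3.

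Interferon genes were lower in mutants than in WT wherever they passed the test. Of 29 tested members, 11 were lower in Hdac2 ECKO and 6 in the Ezh2 ECKO-labelled samples, against 5.38% and 0.684% of all genes tested. None was higher. In beta-catenin GOF none passed, while 24 were at an unadjusted edgeR p under 0.05, against 763 of all 12577 genes tested. The list was highest in WT 2 as a whole, so its members are not separate signals. The median log2 differences of the list from WT were −1.60, −1.72 and −1.59, against 0.10, 0.05 and 0.01 over all genes tested. The genes named next were chosen because they passed this test, so a gap between their WT and mutant values adds no support. Irf7, a transcription factor that amplifies interferon responses, had WT values of 114, 184 and 47.0 CPM against 15.4, 19.8 and 14.8 CPM in Hdac2 ECKO (log2 difference −2.78, SE 0.43, edgeR adjusted p 0.0323). In the Ezh2 ECKO-labelled samples it was at 16.2, 28.9 and 15.1 CPM (log2 difference −2.52, SE 0.43, edgeR adjusted p 0.036). Isg15 had WT values of 99.7, 195 and 98.9 CPM against 39.3, 47.9 and 32.3 CPM in Hdac2 ECKO (log2 difference −1.72, SE 0.32, edgeR adjusted p 0.0323). Usp18, which removes Isg15 from proteins, fell by 1.35 (edgeR adjusted p 0.0323) and 1.26 (edgeR adjusted p 0.0476) on the log2 scale in Hdac2 ECKO and in the Ezh2 ECKO-labelled samples. Irf1, Ifit3, Oasl2 and Igtp fell in the latter by 2.23 (edgeR adjusted p 0.0435), 2.04 (edgeR adjusted p 0.0448), 1.80 (edgeR adjusted p 0.0463) and 4.06 (edgeR adjusted p 0.0478). Without WT 2 the differences of Igtp and Ifit3 in the Ezh2 ECKO-labelled samples were −1.01 and −1.23. No interferon gene passed the test in either of these mutant groups without WT 1 or without WT 2.

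In the other lists, all counts are for Hdac2 ECKO unless another group is named. Of 21 immediate early genes, 6 were lower, against 5.38% of all genes tested. In the Ezh2 ECKO-labelled samples 1 was lower, against 0.684%. That gene was Atf3, with WT values of 831, 380.2 and 246 CPM against 97.0, 59.0 and 117 in Hdac2 ECKO (log2 difference −2.41, SE 0.42, edgeR adjusted p 0.0323) and 122, 198 and 95.6 CPM in the Ezh2 ECKO-labelled samples (log2 difference −1.81, SE 0.41, edgeR adjusted p 0.0478). Without WT 1 the log2 differences of Atf3 were −1.78 and −1.18 and did not pass. Cd74, the MHC class II invariant chain, had WT values of 11.9, 42.2 and 21.6 CPM against 0.227, 0.717 and 0.485 CPM in Hdac2 ECKO (log2 difference −5.70, SE 1.14, edgeR adjusted p 0.0323); without WT 2 it was −5.11 and did not pass. Higher in Hdac2 ECKO were 6 of 35 barrier transporters, 5 of 23 junction genes (2 were lower), 4 of 26 Wnt and Norrin genes and 4 of 23 basement membrane genes, against 3.82% of all genes tested. Of the 70 list members called in Hdac2 ECKO over all lists, 33 were called with the length trend removed, 68 without WT 3, 69 without Hdac2 ECKO 2 and 0 without any other single library of the comparison. Abca1, a cholesterol exporter, had WT values of 22.2, 25.5 and 30.5 CPM against 132, 49.8 and 74.4 CPM in Hdac2 ECKO (log2 difference 1.71, SE 0.31, edgeR adjusted p 0.0323), and Hspg2 (perlecan) rose by 1.65 (edgeR adjusted p 0.0323) on the log2 scale. Marveld2 fell by 1.499 (edgeR adjusted p 0.0448) in the Ezh2 ECKO-labelled samples.

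Some mural cell genes also differed between WT and Hdac2 ECKO. Of 10 tested pericyte genes 4 were higher in the mutant, and of 7 smooth muscle genes 2, with none lower. Of all genes tested, 3.82% were higher and 5.38% lower. None of these mural calls held on leaving out WT 1, WT 2, Hdac2 ECKO 1 or Hdac2 ECKO 3. Myocd, the smooth muscle coactivator, had no count in WT and was at 3.29, 0.913 and 1.94 CPM in Hdac2 ECKO. The summed level of the 11 pericyte genes was 33.7 to 45.1 in WT, 116 to 177 in Hdac2 ECKO, 38.6 to 43.7 in the Ezh2 ECKO-labelled samples and 86.6 to 192 in beta-catenin GOF. For the 8 smooth muscle genes the ranges were 42.8 to 71.7, 95.5 to 211, 31.8 to 38.3 and 58.6 to 264. WT stood below Hdac2 ECKO in both mural sums and above every mutant library in haemoglobin share. The 7 genes of choroid plexus and ependyma summed to 1.68 to 2.86 in WT and 2.93 to 269 in Hdac2 ECKO. Their sums were 53.4 to 253 in the Ezh2 ECKO-labelled samples and 0.106 to 50.7 in beta-catenin GOF. The part of any of these in the differences above was not tested.

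The markers and the targeted genes did not pass the test in any of the 3 comparisons. In CPM, Hdac2 was at 162, 121 and 104 in WT and 82.1, 94.9 and 112 in Hdac2 ECKO (log2 difference −0.42, SE 0.24, edgeR adjusted p 0.225). Ezh2 was at 8.88, 2.69 and 8.68 in WT and 9.85, 5.19 and 11.7 in the Ezh2 ECKO-labelled samples (log2 difference 0.40, SE 0.46, edgeR adjusted p 0.615), a direction against the label. Ctnnb1 was at 546, 607 and 809 in WT and 696, 575 and 478 in beta-catenin GOF (log2 difference −0.17, SE 0.29, edgeR adjusted p 0.962). Counts over a whole gene do not show the loss of single exons. Cldn5 differed from WT by −1.10, SE 0.44, edgeR adjusted p 0.1 in Hdac2 ECKO and −1.12, SE 0.44, edgeR adjusted p 0.138 in the Ezh2 ECKO-labelled samples on the log2 scale.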

How the data were processed

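RNA of sorted cortical endothelium was measured in 12 libraries, 3 in each of 4 groups; 3 WT libraries are described and the others were used for comparison. Per the submitters' processing notes, reads were handled with FastQC, cutadapt, STAR, featureCounts and DESeq2 on mm10, with no versions, and sequencing was paired-end per the labels' protocols. The authors deposited a table of counts per gene for 21638 genes, with a gene length. Its values were whole numbers with different totals per library and were treated as raw counts, although the table is titled as normalized; had they been scaled by 1 factor per library, relative levels within a library would be unchanged. Even numbers were in excess, as where both mates of a pair are counted.

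Levels are counts divided by length, scaled to 1000000 per library; the deposited length equalled the GENCODE M21 exon union for 99.3% of the 21451 genes matched by position. Comparisons used edgeR 4.0.16 (R 4.3.3): TMM scaling, the 12577 genes averaging 10 counts or more, all 12 libraries in 1 fit, the quasi-likelihood test and Benjamini-Hochberg adjustment at 0.05. Python 3.11, pandas 2.3.3 and numpy 2.4.6 were used for the levels. The tests were also run on data simulated for Hdac2 ECKO against WT, with genes drawn independently. Such data hold no outlying library, so they do not bear on how calls changed on leaving out a library. Alternatives were median-ratio size factors, no filter, DESeq2 1.42.0, a replicate block, removal of a length trend and leaving out each library. Genes named are the 40 highest, up to 6 highest members of each list (3 for other cell types), the 20 with the widest spread among WT libraries at a mean level of at least 20, and up to 8 called list members per comparison; other genes were added for their known roles after their values were seen. The members and lists were chosen with earlier results of these data known. Totals of 28854569 to 33124642 counts in WT limit low genes: 3 counts were taken as the floor. Some genes are not reported here, in the text or the figures, but were kept in fits, sums and counts.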

Additional observations from a re-analysis of the deposited data

How the results depend on the processing

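The counts of genes at or above a level of 1, 10 and 100 stayed within 1.5 times under every alternative run. The share of the 100 highest genes was 33.1% without division by length, 42.2% without the haemoglobin genes and 43.1% with the median length of GENCODE basic transcripts, against 48.6%; the last 2 were chosen after seeing the data. Of the 100 highest genes, 61, 96 and 69 were shared with these rankings, and 92 to 97 on leaving out 1 library.

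For Hdac2 ECKO, 2279 genes were called without the filter, 2497 by DESeq2, 1832 with a replicate block and 618 with the length trend removed, against 1157. For the Ezh2 ECKO-labelled samples, 76 were called with median-ratio size factors, 1367 without the filter, 1271 by DESeq2 and 536 with a replicate block, against 129. For beta-catenin GOF, 157 were called without the filter and 38 by DESeq2, against 0. Leaving out 1 library gave 0 to 2220, 2 to 2328 and 0 to 4 calls in the 3 comparisons. The cause was not tested. Same-numbered libraries were not paired by their deviations (r −0.22 to 0.09), so the block is given only here. None of the 16 called gene differences that were recomputed under these alternatives changed sign; differences printed for genes that were not called were not recomputed. An alternative leaving out mitochondrially encoded genes was not run.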

Other observations

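Further gene families, chosen after their values were seen, describe the WT libraries beyond the lists above. The 87 cytosolic ribosomal protein genes took 3.95% of the length-scaled total and the 86 nuclear genes of the respiratory chain 4.80%. Of these, 77 and 60 were highest in WT 3. S100 genes, which encode small calcium-binding proteins, were led by S100a11 at 2886, 3444 and 4208, S100a13 at 1379, 1556 and 2189 and S100a1 at 1029, 1040.2 and 1479, and 12 of 18 were highest in WT 3. Annexins, which bind membranes in the presence of calcium, included Anxa5 and Anxa3, the latter at 755, 713 and 566. Among 17 Klf factors, Klf6 at 199, 144 and 81.3 followed Klf2 and Klf4.

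Channel and enzyme families were mostly near 0. Of 94 genes named as potassium channels, 2 had a mean of at least 1: Kcnj2, an inward rectifier, at 5.41, 7.00 and 3.81 and Kcnq1 at 2.84, 2.05 and 1.04. Of 11 aquaporins only Aqp11 reached 1, at 57.4, 45.9 and 36.09. Of 100 Cyp genes, 15 reached 1, with Cyp2e1 at 49.5, 49.5 and 32.7 and Cyp20a1 at 44.1, 35.9 and 27.1 the highest. Of 32 claudins, Cldn34c2 at 26.7, 29.4 and 31.5 and Cldn34c1 at 11.9, 13.8 and 12.4 followed Cldn5.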
